A study of Rattus norvegicus with 6 samples.

Results

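The translation factor and aminoacyl-tRNA synthetase genes of cultured fetal rat lung epithelial cells were compared between stretched and unstretched cultures. The members were all genes on the array whose single annotated symbol begins with Eif1 to Eif6 (the eIF2 kinases left out), with Eef1 or Eef2, or names a tRNA synthetase, each represented by its brightest probe set. They came to 76 of the 10411 genes with a single symbol, made up of 42 initiation, 10 elongation, 19 cytosolic synthetase and 5 mitochondrial synthetase genes. Of the 76, 74 passed the filter on dim probe sets and were tested. Cars2 and Hars2, for mitochondrial cysteinyl- and histidyl-tRNA synthetase, did not pass and stayed at or under 141.7 signal units on all 6 arrays.

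Protein synthesis starts when initiation factors bring the initiator tRNA, the small ribosomal subunit and the capped mRNA together. Elongation factors then deliver charged tRNAs and move the ribosome along the message, and the charged tRNAs are made by the synthetases, each of which joins a particular amino acid to its tRNA. When amino acids run short or unfolded protein builds up in the endoplasmic reticulum, kinases phosphorylate eIF2, most translation slows and the transcription factor ATF4 is made, whose known targets include genes for many cytosolic synthetases and for the translation repressor 4E-BP1.

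The cells were type II epithelial cells, the surfactant-making cells of the alveolus, taken from rat fetuses on day 19 of gestation and grown without serum on collagen-1-coated silastic sheets. On the day after plating, 3 control cultures were left unstretched for 16 h, and 3 strained cultures were stretched for as long. Each hour of strain held 15 min of cyclic stretch by 5%, with 60 cycles in a minute, and 45 min of steady distension by 2.5%. The cultures formed 3 pairs of 1 control and 1 strained culture, with another litter for each pair, and the labels of 5 of the 6 arrays name the CD strain and both sexes. Each culture was measured on 1 array, and precision is limited by having only 3 arrays in a group. In bulk RNA, a change in the cells present and a change in RNA per cell cannot be told apart.

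Array medians ran from 161.7 to 199.0 signal units, and the 3'-to-5' signal ratio of Gapdh ran from 1.41 to 1.80 in control and from 1.47 to 1.79 in strained arrays. Pair 1 was run on a day of its own. In every pair the strained array had another fluidics module than its control and was scanned after it, so module, scan order and strain cannot be told apart. The epithelial markers Cdh1, Epcam, Krt8, Krt18 and Krt19 summed to between 34670 and 38360 units in control and between 34370 and 37860 in strained arrays. The type II markers Sftpb, Sftpc, Sftpd, Abca3 and Nkx2-1 passed the filter, while Sftpa1 and Napsa did not. These 7 genes summed to between 9234 and 9711 units in control and between 9590 and 9704 in strained arrays. Their log2 differences were of both signs, at 0.57 for Sftpc, 0.01 for Nkx2-1, and -0.23, -0.20 and -0.16 for Sftpb, Sftpd and Abca3. Smooth muscle markers (5 genes) summed to between 18160 and 22530 units in control and between 13960 and 20400 in strained arrays. Leukocyte markers (5 genes, with the defining markers Ptprc and Itgam under the filter) summed to between 1568 and 2133 and between 1030 and 2105. Fibroblast markers (6 genes) summed to between 5885 and 7322 and between 5803 and 6929, and no endothelial marker passed the filter. The summed smooth muscle signal differed by -0.41, -0.14 and -0.13 (log2) in pairs 1, 2 and 3 and the summed leukocyte signal by -0.61, -0.49 and -0.02. The erythroid markers Hbb and Alas2 summed to between 229.2 and 384.2 units in control and between 136.5 and 326 in strained arrays, with differences of -0.75, -0.94 and -0.24 in the pairs. No marker gene of these lists was called, but the smooth muscle marker Acta2 came close at -0.66 ± 0.12 (adjusted p = 0.051 in limma). It was lower in each pair, at -1.05, -0.50 and -0.43. Among the fibroblast markers, Col1a2, Col3a1 and Col1a1 were at -0.61 ± 0.15, -0.32 ± 0.15 and 0.18 ± 0.09, while Dcn, Lum and Pdgfra were under the filter. Of 3 alpha-globin probe sets left out of the lists because they carry more than 1 symbol (Hba-a2 and Hba-a1), however, 2 were called lower under strain, at -1.59 ± 0.17 and -1.05 ± 0.15 (adjusted p of 0.0040 and 0.014 in limma). The part of these markers in the results was not tested.

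Strain was accompanied by higher signal of 4 called members, the synthetase genes Cars1, Sars1 and Gars1 and the repressor gene Eif4ebp1. No member was called lower, although 29 of the 74 tested were below 0, and 7 were lower in all 3 pairs, as 16.1% of all genes were. Calls are at an adjusted p of 0.05 in limma, fitted with the litter pair as a block and adjusted over all 9519 probe sets tested. The 4 called of 74 tested members compare with 25 of 7163 genes, or 0.349%, over the whole array (0.321% upward and 0.0279% downward), and with 0.326% of all probe sets. Without an adjustment, 10 members had p under 0.05 upward and 1 downward, where 4.83% and 4.73% of all genes did. Leaving out pairs 1, 2 and 3 in turn gave 10, 4 and 24 members upward, where 4.23%, 2.49% and 6.71% of all genes were. Downward the same fits gave 4, 0 and 3 members, for which the share of all genes was not computed. The median log2 difference of the members was 0.09, beside -0.01 for all genes tested, and in pairs 1, 2 and 3 it was 0.13, 0.13 and -0.04. The calls depend on these settings of limma: no member was called with no replicate block, with no variance trend or with dim probe sets kept, and in the first 2 of these cases no gene of the whole array was called.

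**Figure D1:**
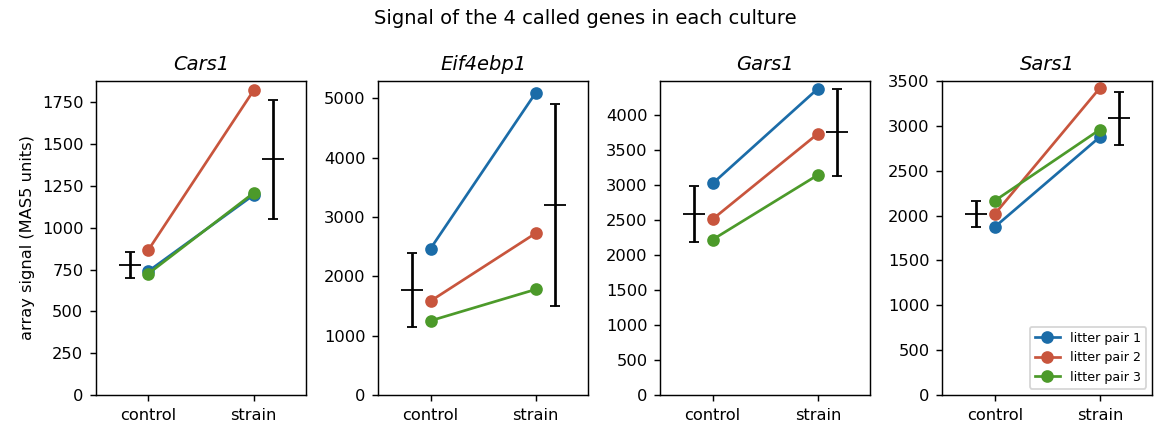
Array signal (MAS5 units, linear axis from 0) of the 4 called genes in control and strained cultures, with a line for each of the 3 litter pairs and the mean ± SD beside each group. Every line rises, and for Eif4ebp1 the litters differ so much that strained culture 3, at 1778, lies under control culture 1, at 2467.

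The subgroups were described by their medians and their numbers of genes above 0. The 19 cytosolic synthetases had a median log2 difference of 0.29, and 17 of them were above 0, where 47% of all genes were. The 42 initiation genes had a median of 0.03 with 23 above 0, and the 10 elongation genes one of -0.03 with 4 above 0. The 3 tested mitochondrial synthetases had a median of -0.18. Of the 4 calls, 3 were cytosolic synthetases and the other was an initiation gene. These medians describe the lists, and no difference between them was tested.

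**Figure D2:**
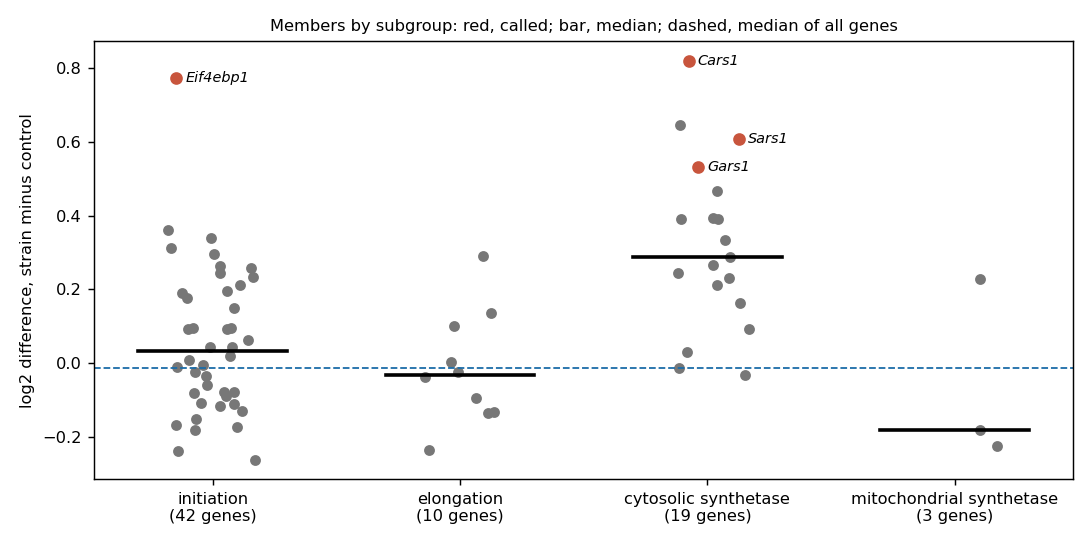
Log2 difference (strain minus control, of signal + 16) of each of the 74 tested members by subgroup, with called genes in red, the median of each subgroup as a bar and the median of all genes as a dashed line. The cytosolic synthetases, with a median of 0.29, sit above the other subgroups, and Eif4ebp1 stands alone at 0.77 among the initiation genes.

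Cars1, the cytosolic cysteinyl-tRNA synthetase, had signals of 740.5, 868.0 and 725.8 in control cultures 1, 2 and 3 and of 1195.8, 1821.3 and 1207.9 in the strained cultures of the same litters. All strained arrays lay above all control arrays, and the strained culture of litter 2 was the highest. The log2 difference was 0.82 ± 0.13 (SE, n = 3 pairs, adjusted p = 0.022 in limma), with 0.68, 1.06 and 0.72 in the pairs. Cars1 alone among the members was at least 1.5-fold higher in each pair, which 0.237% of all genes were (0.0419% were lower by as much). Its other probe sets gave 0.40 ± 0.14 and 0.44 ± 0.16 (adjusted p of 0.38 and 0.39), and the mean over its 3 probe sets gave 0.55 with an adjusted p of 0.18, so its call rests on the brightest of them.

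Sars1, the seryl-tRNA synthetase, had control signals of 1873, 2017 and 2165 and strained signals of 2878, 3424 and 2959. Its groups were well apart, since the lowest strained culture exceeded the highest control by more than the control cultures differed among themselves. The log2 difference was 0.61 ± 0.10 (adjusted p = 0.039 in limma), with 0.62, 0.76 and 0.45 in the pairs. Gars1, the glycyl-tRNA synthetase, had control signals of 3017, 2507 and 2216 and strained signals of 4368, 3726 and 3137. Litter 1 was the highest and litter 3 the lowest in both groups, and the groups did not overlap. The log2 difference of Gars1 was 0.53 ± 0.09 (adjusted p = 0.039), the most even of the 4 calls over the pairs at 0.53, 0.57 and 0.50.

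Wars1, the tryptophanyl-tRNA synthetase, had the next smallest p and was not called. Its control signals were 1436, 1133 and 1351 and its strained signals 1741, 1626 and 1768, so the groups did not overlap, and the log2 difference was 0.39 ± 0.11 (adjusted p = 0.27 in limma). In all, 7 of the 19 cytosolic synthetases had every strained array above every control array, which 2.99% of all genes had, and none had the reverse, which 3.18% of all genes had. Beside Cars1, Sars1, Gars1 and Wars1 they were Aars1, Nars1 and Yars1, for alanine, asparagine and tyrosine, with log2 differences of 0.34 ± 0.11, 0.39 ± 0.13 and 0.47 ± 0.14 (adjusted p of 0.32, 0.34 and 0.29). The 16 cytosolic synthetases that were not called had a median of 0.26. Higher signal in all 3 pairs was seen for 9 of the 19, against 14.3% of all genes, and lower signal in all 3 pairs for none, against 16.1%.

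**Figure D3:**
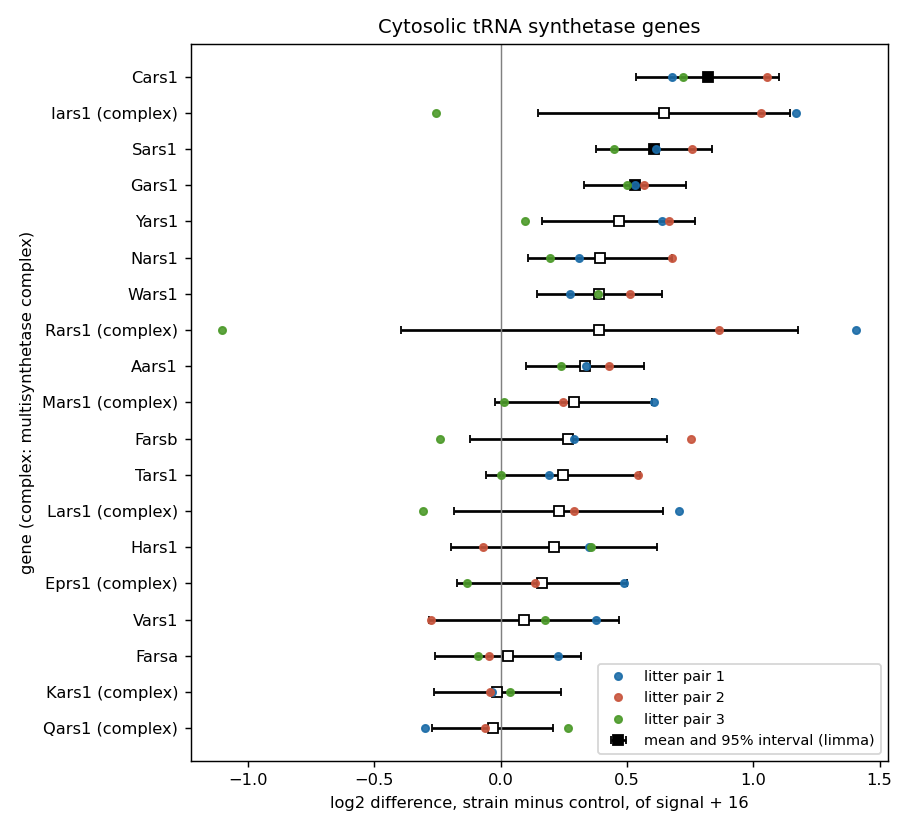
Log2 difference (strain minus control, of signal + 16) of the 19 cytosolic synthetase genes, as the limma mean with its 95% interval (squares, filled where called) and as the value of each litter pair (coloured points); genes of the multisynthetase complex are marked. Pair 3 lies lowest for most genes and farthest to the left for Rars1, at -1.10.

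In mammalian cells several synthetases are bound in a multisynthetase complex, and the pairs of Rars1, Iars1 and Lars1 among them lay furthest apart of the 19 genes. The 7 measured enzymes of the complex had a median log2 difference of 0.23, with medians of 0.61, 0.25 and -0.13 in pairs 1, 2 and 3. The 12 other cytosolic synthetases had a median of 0.36, with 0.34, 0.56 and 0.22. Iars1, the isoleucyl-tRNA synthetase, had control signals of 643.9, 728.8 and 1092.9 and strained signals of 1466.4, 1504.6 and 913.3. Pairs 1 and 2 were far apart in the upward direction and pair 3 went the other way, giving 0.65 ± 0.23 (adjusted p = 0.38 in limma). Without pair 3, Iars1 was called at 1.10 ± 0.13 (adjusted p = 0.021). Rars1, the arginyl-tRNA synthetase, had the same signs, with control signals of 236.6, 202.6 and 566.8, strained signals of 654.2, 382.1 and 255.6, pair differences of 1.41, 0.86 and -1.10 and a mean of 0.39 ± 0.36 (adjusted p = 0.81 in limma). Lars1 and Eprs1, for leucine and for glutamate and proline, were also above 0 in pairs 1 and 2 and below 0 in pair 3. Kars1 and Qars1, for lysine and glutamine, were the only cytosolic synthetases below 0, at -0.01 ± 0.11 and -0.03 ± 0.11, with 95% intervals from -0.26 to 0.24 and from -0.27 to 0.21. Mars1, the methionyl-tRNA synthetase and the last enzyme of the complex, was at 0.29 ± 0.14 and above 0 in each pair, with pair 3 at 0.01.

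Outside the complex, the synthetases not yet described lay above 0 on average with pairs of mixed size. Farsb and Farsa encode both subunits of phenylalanyl-tRNA synthetase and were at 0.27 ± 0.18 and 0.03 ± 0.13. Tars1, for threonine, was at 0.25 ± 0.14, with a difference of 0.54 in pair 2 and of about 0 in pair 3. Hars1 and Vars1, for histidine and valine, were at 0.21 ± 0.19 and 0.09 ± 0.17, and in both pair 2 was the one below 0. None of these 5 was called, and in each the strained signals overlapped the control signals.

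The scaffold proteins of the complex are encoded by Aimp1, Aimp2 and Eef1e1, whose symbol groups it with the elongation factors. Eef1e1 had control signals of 1090, 955.3 and 1029 and strained signals of 1207, 1194 and 989.1, with overlapping groups and a log2 difference of 0.14 ± 0.13 (adjusted p = 0.81 in limma). Aimp2 was at 0.28 ± 0.11 (adjusted p = 0.44) and above 0 in each pair, and Aimp1 at 0.09 ± 0.16 (adjusted p = 0.91).

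Promoters were searched because cytosolic synthetases lay high together and ATF4 is known to bind a composite element in the promoters of its targets. The letters TGATGNAA, which cover the known form of that element, were searched on both strands in the 250 bases before each start in RefSeq (assembly GRCr8), where 69 of the 76 members matched. They occurred in 5 of 17 cytosolic synthetase promoters, or 29.4%, in 1 of 38 initiation promoters, or 2.63%, and in none of 9 elongation and 5 mitochondrial synthetase promoters. Over all 27457 genes of the table the share was 3.58%, a gene with several starts counting where any start had a match. Each of the 6 matches read TGATGCAA on one strand or the other, a form chosen for counting after it was seen, which 0.725% of all genes had. The stretches around the matches are shown with the match in capitals, 5′ to 3′ on the gene's own strand; TTGCATCA is the reverse complement of TGATGCAA.
Aars1: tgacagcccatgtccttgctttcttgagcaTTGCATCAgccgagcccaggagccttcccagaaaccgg
Iars1: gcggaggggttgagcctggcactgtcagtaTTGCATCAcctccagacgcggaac
Tars1: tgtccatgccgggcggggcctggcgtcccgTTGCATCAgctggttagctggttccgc
Mars1: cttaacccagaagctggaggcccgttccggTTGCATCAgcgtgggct
Nars1: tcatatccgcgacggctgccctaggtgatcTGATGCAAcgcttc
Eif2s2: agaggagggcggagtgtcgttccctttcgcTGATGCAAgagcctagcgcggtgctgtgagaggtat

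The whole searched windows of the called genes Cars1 (chr1:208225370-208225619, minus strand) and Sars1 (chr2:198769366-198769615, minus strand) are shown for comparison, without capitals since neither held a match.
Cars1: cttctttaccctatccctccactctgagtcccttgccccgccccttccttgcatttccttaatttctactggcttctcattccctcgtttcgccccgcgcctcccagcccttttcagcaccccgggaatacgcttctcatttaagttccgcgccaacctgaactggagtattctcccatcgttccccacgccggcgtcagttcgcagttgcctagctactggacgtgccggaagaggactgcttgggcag
Sars1: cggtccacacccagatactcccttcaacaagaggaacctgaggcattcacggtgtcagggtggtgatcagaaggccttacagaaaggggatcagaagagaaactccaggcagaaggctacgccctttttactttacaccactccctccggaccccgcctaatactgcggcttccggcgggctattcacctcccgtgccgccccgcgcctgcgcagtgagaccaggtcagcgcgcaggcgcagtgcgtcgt

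The match begins 112 bases before the start in Aars1 (chr19:55908340-55908407, plus strand), 24 in Iars1 (chr17:15193653-15193706, minus strand), 27 in Tars1 (chr2:62114803-62114859, minus strand), 17 in Mars1 (chr7:65023754-65023800, minus strand), 14 in Nars1 (chr18:60275783-60275826, minus strand) and 36 in Eif2s2 (chr3:163855571-163855636, minus strand). Except in Aars1, it thus lay within 36 bases of the start. Matches that ran past the start were not counted, so the windows of Cars1 and Sars1, like the others, end there. None of the genes with a match was called. The 5 synthetases with a match had log2 differences from 0.25 to 0.65 with a median of 0.34, and the 12 without one from -0.03 to 0.82 with a median of 0.22. In pairs 1, 2 and 3 the medians were 0.34, 0.54 and 0.01 with a match and 0.36, 0.21 and 0.14 without one, so the genes with a match had the higher median in pair 2 alone. Gars1 and Eif4ebp1 are not in the table. A match is a description of the letters and not of binding.

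Eif4ebp1 encodes 4E-BP1, which holds the cap-binding protein eIF4E away from its scaffold eIF4G unless the kinase mTOR phosphorylates it. Its control signals were 2467, 1582 and 1250 and its strained signals 5092, 2725 and 1778. The groups overlapped because litter 1 was high and litter 3 low in both, while within each pair the strained culture was higher. The log2 difference was 0.77 ± 0.12 (adjusted p = 0.022 in limma), with 1.04, 0.78 and 0.50 in the pairs, and the group means were 1766 ± 629 (SD, n = 3) and 3198 ± 1707. The related repressors Eif4ebp2 and Eif4ebp3 were at 0.09 ± 0.11 and 0.26 ± 0.19, and Eif4enif1, which carries eIF4E into the nucleus, at 0.18 ± 0.17, none of them called. These 4 genes were all above 0 on average, where 47% of all genes were, but Eif4ebp2, Eif4ebp3 and Eif4enif1 each had pairs of both signs.

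The partners of that switch gave other values. Eif4e, the cap-binding protein, had control signals of 1546, 960.9 and 1370 and strained signals of 1740, 1500 and 1504. The groups overlapped, each pair was above 0, and the log2 difference was 0.31 ± 0.13 (adjusted p = 0.48 in limma). A much dimmer probe set of Eif4e was at 0.36 ± 0.30, with pair 2 below 0 at -0.25. Eif4g1, the scaffold on which the cap complex is built, had control signals of 2208, 2839 and 2787 and strained signals of 1660, 3082 and 2891, with a log2 difference of -0.08 ± 0.12 (adjusted p = 0.90), and its pairs differed in sign. The 11 cap and helicase genes had a median of 0.04 and ranged from -0.18 to 0.31, and none was called. Eif4a1, the helicase that unwinds the start of the message, was at 0.06 ± 0.08, and its relative Eif4a2 at 0.26 ± 0.19 with 0.56, 0.65 and -0.42 in the pairs. Eif4b, a helper of the helicase, was below 0 in each pair at -0.17 ± 0.11, and Eif4h, another helper, above 0 in each at 0.04 ± 0.08. A dimmer probe set of Eif4b was at -0.06 ± 0.13, with pair 1 above 0 at 0.14.

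Genes of eIF2 and its exchange factor showed no call. Eif2s1, the alpha subunit whose phosphorylation slows translation, had control signals of 928.5, 782.0 and 1256.3 and strained signals of 913.1, 862.9 and 1145.4. Its groups overlapped fully, and the log2 difference was -0.01 ± 0.12 with a 95% interval from -0.28 to 0.27 (adjusted p = 0.997 in limma), so a change of RNA level larger than about 1.2-fold lies outside the interval, while phosphorylation is not measured by an array. The 5 genes of eIF2B, which reloads eIF2 with GTP, had a median of -0.01. Eif2b3 was the only 1 of the 42 initiation genes with every strained array above every control array, which 2.99% of all genes had. Its signals were 277.6, 242.5 and 266.3 in control and 419.6, 313.1 and 286.4 in strained cultures (0.34 ± 0.17, adjusted p = 0.58 in limma). Eif2b1, Eif2b2 and Eif2b5 were at -0.01 ± 0.12, -0.06 ± 0.12 and -0.08 ± 0.16, and Eif2b4 was at 0.19 ± 0.17 with pair 3 below 0. Eif2s2 and Eif2s3, the beta and gamma subunits of eIF2, were at 0.30 ± 0.18 and -0.03 ± 0.15, and both were above 0 in pairs 1 and 2 and below 0 in pair 3. Eif2d, which can bring tRNA to the ribosome without eIF2, was at -0.24 ± 0.14 and below 0 in each pair. The 4 genes that act in choosing the start codon, or are named with them (Eif1a, Eif1ad, Eif1ax and Eif1b), ranged from -0.17 to 0.25.

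The 11 genes of eIF3, the large complex that holds the small ribosomal subunit, had a median log2 difference of -0.02 and ranged from -0.26 to 0.36. Eif3k was the only member with p under 0.05 downward. Its control signals were 2129, 2958 and 2504 and its strained signals 1781, 2421 and 2116. The litters overlapped between groups, but the pairs were close to each other at -0.26, -0.29 and -0.24, giving -0.26 ± 0.10 (adjusted p = 0.42 in limma). Eif3j, a loosely bound subunit, had the largest difference of the complex at 0.36 ± 0.17 (adjusted p = 0.57), from control signals of 412.9, 322.4 and 414.9 to strained signals of 691.3, 444.7 and 390.9, with pair 3 below 0. The 9 others lay between -0.15, for Eif3m, and 0.23, for Eif3c.

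Eif6, which keeps the large ribosomal subunit from joining too early, had control signals of 4585, 3871 and 3855 and strained signals of 4796, 4827 and 4444, with overlap between the groups and a log2 difference of 0.20 ± 0.09 (adjusted p = 0.53). Eif5a, which helps the ribosome through difficult stretches, was at 0.09 ± 0.07, and Eif5b, which joins the subunits, at -0.13 ± 0.19.

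**Figure D4:**
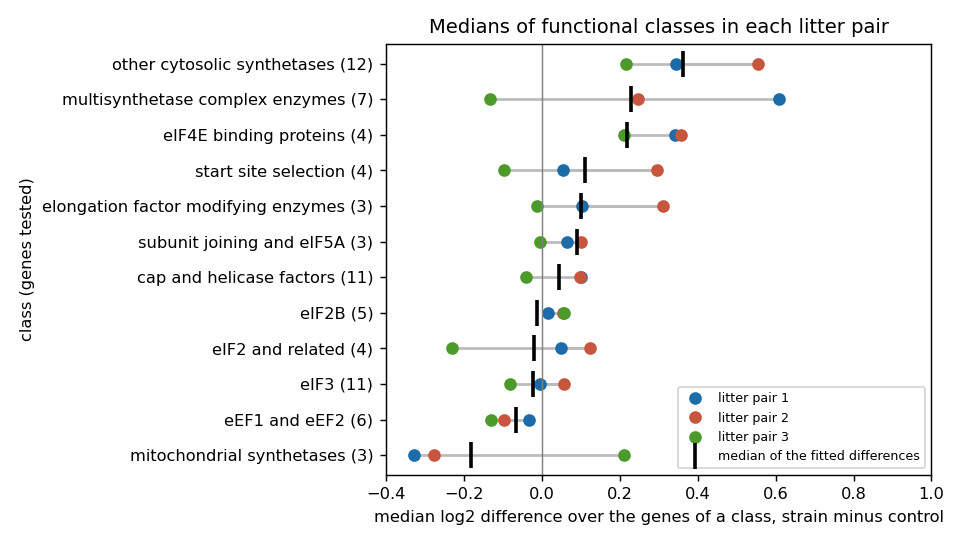
Median log2 difference (strain minus control) over the tested genes of each functional class, in each litter pair (coloured points) and for the fitted differences (black bars), with the number of genes in parentheses. The cytosolic synthetases outside the complex stay above 0.2 in every pair, while the enzymes of the complex span from -0.13 to 0.61.

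The elongation machinery had no call, and its genes lay on both sides of 0. Eef1a1, which delivers charged tRNA to the ribosome, had control signals of 20058, 18552 and 20543 and strained signals of 20551, 18139 and 16858. The groups overlapped, and the log2 difference was -0.09 ± 0.07 (95% interval from -0.25 to 0.06, adjusted p = 0.75 in limma); near-identical copies could add to its signal. Eef2, which moves the ribosome by a codon, had control signals of 11640, 15236 and 13707 and strained signals of 11921, 14215 and 13670, with a log2 difference of -0.02 ± 0.06 and a 95% interval from -0.17 to 0.12. Eef1b2, a subunit of the factor that reloads eEF1A with GTP, had the smallest p of the subgroup. Its control signals were 9533, 8951 and 8524 and its strained signals 8898, 8376 and 7397, lower in each pair with overlapping groups, at -0.13 ± 0.07 (adjusted p = 0.64). Eef1g and Eef1d, other subunits of the same exchange factor, were at 0.00 ± 0.07 and -0.04 ± 0.14, and Eef1a2, the muscle and nerve form of eEF1A, at -0.14 ± 0.19.

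Of the 3 enzymes that modify elongation factors none was called. Eef1akmt1, for a lysine methyltransferase of eEF1A, was at 0.10 ± 0.17, with pair 2 below 0. Eef2k, the kinase that inactivates eEF2, had control signals of 180.6, 107.8 and 121.2 and strained signals of 136.6, 137.5 and 71.3, with pairs of both signs and a log2 difference of -0.24 ± 0.25 (adjusted p = 0.86 in limma). Its 3 other probe sets did not pass the filter. Eef1akmt4, for another such methyltransferase, had control signals of 179.2, 139.1 and 123.6 and strained signals of 267.5, 180.7 and 122.5, at 0.29 ± 0.21 (adjusted p = 0.74), with pair 3 at about 0.

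The mitochondrial synthetases charge the tRNAs of the mitochondrial ribosome, and 3 of the 5 were measured above the filter. Fars2 had control signals of 268.4, 232.8 and 247.7 and strained signals of 171.9, 177.6 and 305.6, so pairs 1 and 2 were lower and pair 3 higher (-0.22 ± 0.20, adjusted p = 0.81 in limma). Vars2 showed the same order of pairs, with control signals of 211.6, 214.6 and 208.9 and strained signals of 165.2, 174.3 and 218.1 (-0.18 ± 0.19, adjusted p = 0.85). Tars2 had control signals of 146.5, 105.2 and 143.4 and strained signals of 197.4, 111.8 and 168.6, above 0 in each pair (0.23 ± 0.21, adjusted p = 0.82). None of the 3 was separable from 0 at this spread.

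Genes of the same pathway outside the name rule were read from a list of 42, of which 33 were on the array and 30 were tested. The list held the eIF2 kinases, the ATF4 and mTOR branches, cap and poly(A) partners, release factors and mitochondrial factors. Of the 30, 2 were called higher and none lower, where 0.321% and 0.0279% of all genes were. An unadjusted p under 0.05 was seen upward for 5 and downward for 0, against 4.83% and 4.73% of all genes. The median log2 difference was 0.09, with 19 genes above 0 and 11 below. The list was chosen with earlier results of these data known. The called genes were Atf4, at 0.69 ± 0.08 (adjusted p = 0.0050 in limma), and the ATF4-induced pseudokinase gene Trib3, whose brightest probe set was at 0.96 ± 0.17 (adjusted p = 0.046). The other Trib3 probe sets were at 2.10 ± 0.15 (adjusted p = 0.00028) and 1.12 ± 0.21 (adjusted p = 0.057). Over 14 alternatives Trib3 ran from 0.75 (without pair 1) to 1.97 (without pair 3, where another of its probe sets was the brightest) and was called in 4. Ddit3, for the stress factor CHOP, was at 0.77 ± 0.17 (adjusted p = 0.13), and Ppp1r15a, for the subunit that guides a phosphatase to eIF2, at 0.42 ± 0.13 (adjusted p = 0.31), both above 0 in each pair. The kinase genes Eif2ak1, Eif2ak3 and Eif2ak4 were at 0.08 ± 0.13, 0.19 ± 0.17 and -0.28 ± 0.20, and Mtor at -0.15 ± 0.15, none of them called.

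Over the 3 pairs, the called synthetases had mean log2 differences of 0.61, 0.79 and 0.56. Outside the members, the genes nearest to this profile by Euclidean distance over the 3 pairs were Psph, of serine synthesis, Rab8b, Atf4, Tm7sf2 and Ppp1r12c, at distances from 0.12 to 0.20 log2 units. Psph had 0.55, 0.90 and 0.58 in the pairs and a log2 difference of 0.68, and was not called (adjusted p = 0.15 in limma).

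Batches and single litters bear on the 4 calls as follows. Within the second run day, pairs 2 and 3, the same 4 members were called, where 42 of 7160 genes were in all. That fit had only 2 pairs, which differed in chip lot, and its p-values too reflect the spread between pairs only in part. The first run day held pair 1 alone, too few arrays for a test. Without pair 2 only Eif4ebp1 was called among the members, where 15 of 7159 genes were in all. Cars1, Sars1 and Gars1 were then at 0.70, 0.53 and 0.52 with adjusted p of 0.20, 0.32 and 0.27 in limma. Without pair 3, which was also the only pair on the second chip lot, Eif4ebp1 and Iars1 were called, where 23 of 7171 genes were in all. The 3 synthetases Cars1, Sars1 and Gars1 were then at 0.87, 0.69 and 0.55 with adjusted p from 0.057 to 0.085 in limma.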

How the data were processed

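RNA of 6 cultures was hybridised to Affymetrix rat E230A arrays, per the labels' protocols. The deposited table gives linear intensities, 1 for each probe set, the MAS5 version 5.0 signal per the submitters' processing notes, which the authors had scaled, since every array's 2% trimmed mean was between 500.129 and 500.148. Detection calls were not used here. The labels name a purification column for the RNA, while the run files of all 6 arrays state that none was used. Run files served only to find batches.

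Signals were used as deposited, as log2(signal + 16), on which differences of dim genes are understated. Of 15866 probe sets without controls, the dimmest 40% by mean over all arrays (signals under about 115.6) were dropped, leaving 9519 and 7163 genes. Symbols came from the platform annotation (12783 probe sets with 1 symbol, 312 with several, 2771 with none). limma 3.58.1 in R 4.3.3 was fitted with litter pair and group, a variance trend on intensity and Benjamini-Hochberg adjustment, and was tested on simulated data. About 9 of its 11 degrees of freedom are borrowed from other probe sets, so p-values reflect the spread between these pairs only in part. Litter pairing comes from the series' design text; same-numbered arrays deviated together (correlations 0.51, 0.47 and 0.44, others from -0.35 to -0.12).

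Full values went to called members, to the 4 of each subgroup with the smallest p, and to Eif4ebp1, Eif2s1, Eif4e, Eif4g1, Eef1a1, Eef2 and Eef2k, and, outside the members, to called or low-p pathway genes. Iars1, Rars1, Eif2b3 and Eif3j were added after their values were seen. The members and lists were chosen with earlier results of these data known. Promoter sequences are RefSeq's (GRCr8).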

Additional observations from a re-analysis of the deposited data

How the results depend on the processing

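The median of the cytosolic synthetases lay between 0.26 and 0.43 over 14 alternatives, that of all members between 0.05 and 0.12, that of the initiation genes between 0.01 and 0.06, and that of the mitochondrial synthetases between -0.30 and -0.04 (13 alternatives), each within 1 SD over pairs of the reported value. That of the elongation genes ran from -0.06 to 0.002. The count of called members was 4 in the reported fit. It was 0 with no replicate block, with no filter on dim probe sets, with no variance trend, and with the block set to run day or chip lot instead of litter pair; the other choices with all pairs gave 3 or 4. In those 5 settings limma gave from 7 to 10 members an unadjusted p under 0.05 upward and 0 or 1 downward. Of all genes, from 1.173% to 4.025% had such a p upward, and from 0 to 4 genes of the whole array were called. Leaving out a pair gave from 1 to 4 calls, where from 15 to 42 genes of the whole array were called. Cars1, Sars1, Gars1 and Eif4ebp1 stayed above 0 in all 14 alternatives, with ranges of 0.55 to 0.89, 0.53 to 0.69, 0.52 to 0.57 and 0.64 to 0.91, and were called in 6, 6, 6 and 9 of them. The fit with no filter adjusts over more probe sets, and the cause of each lost call, in that fit as in the others, was not tested.

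The pathway genes, with 2 calls reported, gave 0 under the same 5 settings, and 1 with a pseudocount of 64, with quantile normalization and with equal array medians. Leaving out a pair gave 1 or 2. The count of members at least 1.5-fold in every pair, 1 as reported, was 0 with the mean of each gene's probe sets, 5 at a 1.2-fold threshold, and between 1 and 6 when a pair was left out. The share of all genes was not computed for these alternative fold counts. Among single genes, the sign turned with equal array medians for Eif2s1 (0.027) and Eef2 (0.0094). Leaving out a pair turned the sign of 27 of the 74 members at least once, 10 without pair 1, 7 without pair 2 and 12 without pair 3, and of none of the 4 called. For genes given in full, values then ranged from -0.078 to 0.058 for Eif2s1 (0.0039 without pair 1, 0.058 without pair 3), from -0.052 to 0.015 for Eef2 (0.015 without pair 2), from -0.18 to 0.085 for Eif4g1 (0.085 without pair 1), from -0.12 to 1.14 for Rars1 (-0.12 without pair 1), from -0.014 to 0.26 for Aimp1 (-0.014 without pair 1), and from -0.16 to 0.0013 for Eef1a1 (0.0013 without pair 3). Signal over background was not compared between genes.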
